A study of Mus musculus with 6 samples.

Results

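The 10 genes described here encode enzymes that write and remove DNA methylation, partners of these enzymes, and a subunit of the NuRD complex. The methyltransferases are Dnmt1, Dnmt3a and Dnmt3b, with the partners Dnmt3l and Uhrf1. The others are the dioxygenases Tet1, Tet2 and Tet3, the DNA glycosylase Tdg and the NuRD subunit Mbd3. All 10 were chosen by name among 21853 protein-coding genes, and each was described by the H3K27ac peaks of control mouse embryonic stem cells (ESCs) at its promoters, in its body and in the 50 kb on either side. A promoter was the window of 1 kb on each side of the transcription start site (TSS) of any annotated isoform. By these rules 54 of the 22973 peaks were counted for the 10 genes, 14 of them at promoters.

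H3K27ac, acetylated lysine 27 of histone H3, is found at active promoters and enhancers, and was measured by ChIP-seq. The cells were E14 ESCs, described in the labels as E14Tg2A Rosa26-Cre Oct4-IRES-Puro, and every group was grown in N2B27 medium with leukemia inhibitory factor and the inhibitors PD0325901 (of MEK) and CT-99021 (of GSK3). Control cells received DMSO, and the other groups received for 120 min either 100 nM NVP-2, a CDK9 inhibitor, or ActD (actinomycin D), which blocks RNA polymerases, at 800 nM in the labels. The 6 samples were 2 replicates of each of the 3 groups, all of a single line, with chromatin of the human line HEK293T added as a spike-in. The list used here holds the positions of peaks in the Control group with both replicates pooled, so no peak has a height, a depth or a replicate error, and no effect of NVP-2 or ActD on these genes was analysed. All values are therefore given as descriptions with no test.

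DNA methylation in mammals is mostly 5-methylcytosine at CpG sites. DNMT3A and DNMT3B place it on unmethylated DNA, helped by the catalytically inactive DNMT3L, while DNMT1, brought to newly replicated sites by UHRF1, copies it to the daughter strand. TET enzymes oxidise 5-methylcytosine stepwise, TDG removes the most oxidised forms for base excision repair, and MBD3 belongs to the NuRD complex of histone deacetylases and chromatin remodellers. ESCs kept with MEK and GSK3 inhibitors are known for low methylation across the genome. Several of these genes use alternative promoters in different cell types: Dnmt1 has an oocyte first exon, Dnmt3a an internal promoter for a short protein that prevails in ESCs, and Dnmt3l separate promoters in stem cells and germ cells.

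Start sites of 4 genes are shown first. At Dnmt1 and Dnmt3l, some starts had a peak and others did not. Dnmt3a and Tet3 had separate peaks at starts far apart, and also had starts without a peak, which are not shown. Each sequence runs 5′ to 3′ on the gene's strand over 300 bases, 250 before the TSS and 50 from the TSS on, from the mm10 genome, with CpG sites in capitals. Of the Dnmt1 starts, the downstream group, whose isoforms encode proteins of 1501, 1502 and 1620 residues, lay inside a peak and had 12 CpG sites in the window shown. The upstream start, annotated for a protein of 1501 residues, had 2 and lay 6.14 kb from the nearest peak.
Dnmt1, start with a peak, chr9:20952930-20953229, minus strand: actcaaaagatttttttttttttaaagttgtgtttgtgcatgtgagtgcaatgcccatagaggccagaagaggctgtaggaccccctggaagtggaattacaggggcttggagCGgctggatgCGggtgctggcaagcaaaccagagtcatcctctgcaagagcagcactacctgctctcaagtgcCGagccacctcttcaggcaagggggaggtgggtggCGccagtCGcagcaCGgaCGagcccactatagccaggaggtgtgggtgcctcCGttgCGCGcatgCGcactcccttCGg
Dnmt1, start without a peak, chr9:20959839-20960138, minus strand: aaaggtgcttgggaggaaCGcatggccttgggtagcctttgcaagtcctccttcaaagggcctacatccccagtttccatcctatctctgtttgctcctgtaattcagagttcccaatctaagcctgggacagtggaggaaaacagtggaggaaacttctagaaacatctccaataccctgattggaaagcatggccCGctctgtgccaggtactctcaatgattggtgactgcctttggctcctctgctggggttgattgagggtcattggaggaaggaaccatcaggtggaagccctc

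Dnmt3a had a peak at the starts of both its long (908 residues) and short (689 residues) isoforms, which lie 84.7 kb apart. The long isoform's window had 51 CpG sites and the short isoform's window 18.
Dnmt3a, start of the long isoform, with a peak, chr12:3806780-3807079, plus strand: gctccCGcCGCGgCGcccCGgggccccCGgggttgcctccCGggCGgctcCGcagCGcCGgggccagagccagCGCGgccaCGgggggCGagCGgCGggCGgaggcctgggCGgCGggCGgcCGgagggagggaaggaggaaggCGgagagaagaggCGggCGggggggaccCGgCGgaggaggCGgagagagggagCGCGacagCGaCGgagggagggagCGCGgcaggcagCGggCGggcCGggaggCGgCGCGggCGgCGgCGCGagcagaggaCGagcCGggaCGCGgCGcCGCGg
Dnmt3a, start of the short isoform, with a peak, chr12:3891494-3891793, plus strand: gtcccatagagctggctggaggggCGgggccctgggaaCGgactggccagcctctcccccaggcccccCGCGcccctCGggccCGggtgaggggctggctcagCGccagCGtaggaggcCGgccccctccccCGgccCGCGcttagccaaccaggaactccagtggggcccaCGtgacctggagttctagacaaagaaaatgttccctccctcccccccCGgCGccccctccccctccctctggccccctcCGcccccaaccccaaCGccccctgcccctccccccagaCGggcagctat

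Of the 3 Dnmt3l starts, only the middle one (421 residues) had a peak, although its window had 4 CpG sites. The first start (421 residues), which lies inside the neighbouring gene Aire, had 6, and the last (126 residues) had 3.
Dnmt3l, first start, without a peak, chr10:78042037-78042336, plus strand: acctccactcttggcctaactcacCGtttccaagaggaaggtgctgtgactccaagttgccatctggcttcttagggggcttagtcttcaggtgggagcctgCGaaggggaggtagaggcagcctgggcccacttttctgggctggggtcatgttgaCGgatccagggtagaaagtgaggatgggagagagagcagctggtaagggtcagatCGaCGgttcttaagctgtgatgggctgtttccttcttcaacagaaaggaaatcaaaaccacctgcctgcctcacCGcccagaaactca
Dnmt3l, middle start, with a peak, chr10:78049592-78049891, plus strand: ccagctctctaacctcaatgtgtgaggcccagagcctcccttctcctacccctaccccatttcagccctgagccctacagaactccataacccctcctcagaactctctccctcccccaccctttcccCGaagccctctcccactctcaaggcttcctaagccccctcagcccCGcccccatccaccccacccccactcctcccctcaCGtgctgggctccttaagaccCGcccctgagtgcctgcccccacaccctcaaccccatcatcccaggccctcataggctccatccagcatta
Dnmt3l, last start, without a peak, chr10:78055085-78055384, plus strand: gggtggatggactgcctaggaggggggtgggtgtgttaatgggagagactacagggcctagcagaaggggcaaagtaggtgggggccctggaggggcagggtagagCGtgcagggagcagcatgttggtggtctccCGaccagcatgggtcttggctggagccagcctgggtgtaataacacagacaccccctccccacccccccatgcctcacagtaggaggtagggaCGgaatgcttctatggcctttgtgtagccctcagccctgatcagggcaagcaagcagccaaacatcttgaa

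Tet3 had a separate peak at each of the starts of its long coding isoforms. The upstream window (1803 residues) had 46 CpG sites and the downstream one (1668 residues) had 22.
Tet3, upstream start with a peak, chr6:83456343-83456642, minus strand: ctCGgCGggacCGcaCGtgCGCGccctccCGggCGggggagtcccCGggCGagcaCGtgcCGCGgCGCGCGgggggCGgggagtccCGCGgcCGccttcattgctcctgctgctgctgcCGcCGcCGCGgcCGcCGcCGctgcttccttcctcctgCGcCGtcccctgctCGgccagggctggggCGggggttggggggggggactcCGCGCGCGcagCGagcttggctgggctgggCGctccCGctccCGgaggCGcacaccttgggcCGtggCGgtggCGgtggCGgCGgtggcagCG
Tet3, downstream start with a peak, chr6:83441626-83441925, minus strand: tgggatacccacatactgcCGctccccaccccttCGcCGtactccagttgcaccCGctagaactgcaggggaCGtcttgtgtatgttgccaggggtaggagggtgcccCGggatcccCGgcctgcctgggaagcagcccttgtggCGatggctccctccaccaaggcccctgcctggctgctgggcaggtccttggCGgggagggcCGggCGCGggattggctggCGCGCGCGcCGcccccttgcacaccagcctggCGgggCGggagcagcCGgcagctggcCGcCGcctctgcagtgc

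Every one of the 10 genes had at least 1 promoter peak, whereas 51.0% of all protein-coding genes did, and 54.9% of those whose start sites fall into at least 2 groups. A start site group here joins TSSs less than 1 kb apart. The listed genes were long, with a median length of 45.5 kb against 17.4 kb over all protein-coding genes, and had a median of 2.5 start site groups against 1, so they offered more windows than most genes. By start site group, 18 of 30 had a peak against 39.5% over all protein-coding genes, and all 18 lay inside the peak rather than beside it. Of the 12 groups without a peak, 6 had a complete start, and the others belong to transcript models that the annotation marks as incomplete at the start. Among the 14 groups with a RefSeq start within 100 bp, 11 had a peak, against 50.7% for such groups over all protein-coding genes. The 3 without were the upstream Dnmt1 start and the first and last Dnmt3l starts shown above.

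**Figure D1:**
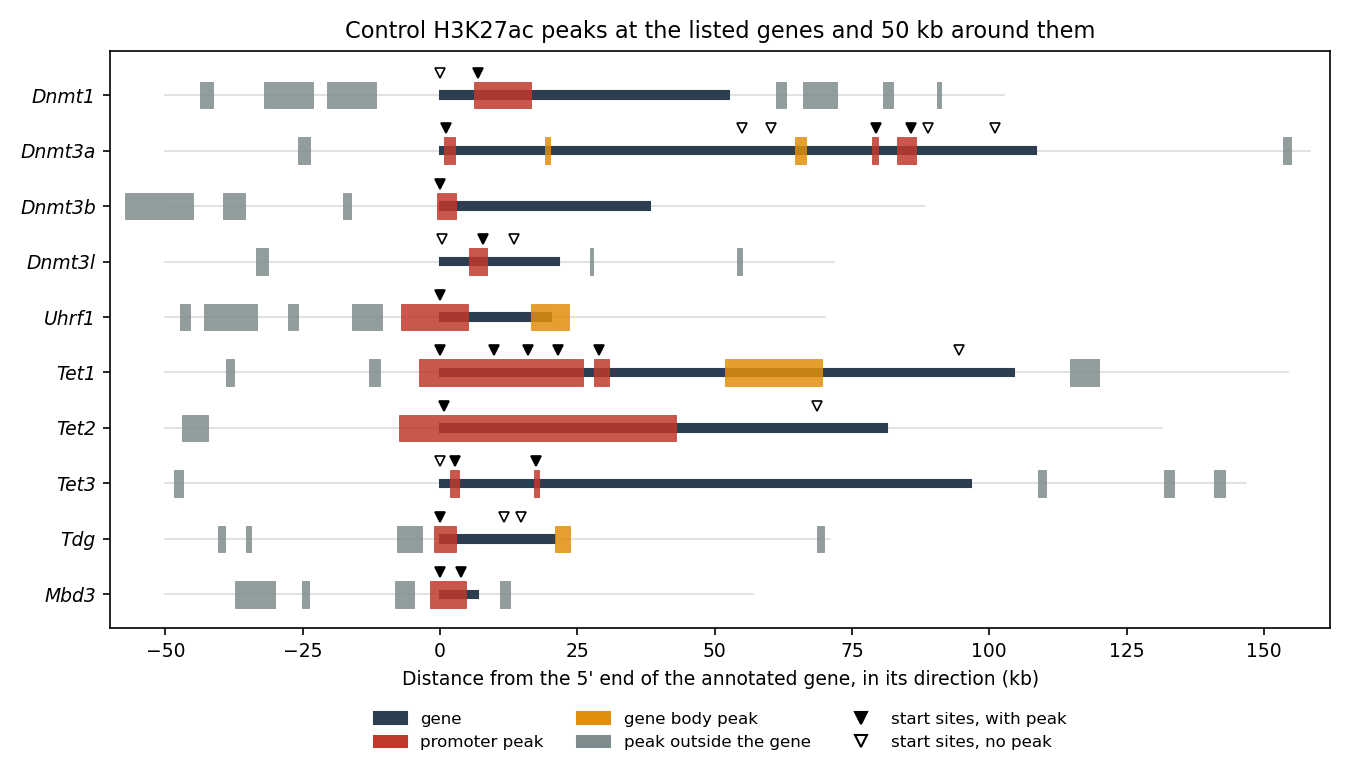
Position of Control H3K27ac peaks around the 10 genes, with the distance from each gene's annotated 5′ end in kb on the horizontal axis (positive in the direction of transcription), the gene as a dark bar, peaks as boxes coloured by class, and start site groups as filled (with a peak) or open (without) triangles. A single wide peak covers 52.7% of Tet2, whereas peaks cover 2.82% of Tet3.

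Among the methyltransferases, Dnmt1 had a single promoter peak of 10425 bp (chromosome 9, 20943322 to 20953746), which covered the downstream start and extended into the gene. Peaks covered 19.8% of Dnmt1. Dnmt3a had 3 promoter peaks, the most of the 10 genes, at 3 of its 7 start site groups. The peak at the long isoform was 1905 bp wide (chromosome 12, 3806829 to 3808733) and that at the short isoform 3388 bp (3889207 to 3892594). The remaining one, of 1216 bp (3884631 to 3885846), lay at a start with no RefSeq counterpart, annotated for a coding part of 140 residues. Dnmt3a also had 2 peaks in its body away from any promoter, of 802 bp in intron 1 and 1908 bp in intron 4 of the long isoform. Even so, peaks covered 8.50% of this gene of 108 kb. Dnmt3b had 1 start site group and 1 promoter peak of 3480 bp (chromosome 2, 153648961 to 153652440), with no peak elsewhere in the gene, and 7.81% of it was covered.

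The methyltransferase partners each had 1 promoter peak. That of Dnmt3l was 3192 bp wide (chromosome 10, 78047235 to 78050426), and the starts before and after it lay 4.95 and 4.91 kb from it. Peaks covered 14.7% of Dnmt3l. The Uhrf1 peak was 12183 bp wide (chromosome 17, 56296167 to 56308349), with 5029 bp in the gene, and reached the promoter of the neighbouring gene Arrdc5, the only other gene whose promoter shared a promoter peak with a listed gene. A further peak of 6908 bp (56319964 to 56326871) was centred on the last exon, 17, of the isoform of 782 residues and covered the promoter of Kdm4b downstream. With both, 42.4% of Uhrf1 lay in peaks, of which part cannot be told apart from the promoters of its neighbours.

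The TET genes differed widely from one another in peak width and coverage. Tet2 had a single promoter peak of 50338 bp (chromosome 3, 133502197 to 133552534), with 42943 bp of it in the gene, and no other peak in its body. Only 30 of all peaks, 0.131%, were at least as wide, this one included. Tet1 had a promoter peak of 29855 bp (chromosome 10, 62883005 to 62912859), which held 4 of its 6 start site groups, and another of 2588 bp (62878276 to 62880863) at the start of the isoform of 2007 residues. A further peak of 17685 bp (62839501 to 62857185) lay in intron 3 of the isoform of 2039 residues, and was the widest of the 5 gene body peaks. Together 44.3% of Tet1 was covered. Tet3, of similar length (96.7 kb), had promoter peaks of 1724 bp (chromosome 6, 83455617 to 83457340) and 1004 bp (83440975 to 83441978) and none in its body. Its most upstream start, of a model with 141 residues, lay 1.74 kb from the nearest peak. Outside the promoter windows, peaks covered 39.9% of Tet1, 53.0% of Tet2 and 0% of Tet3.

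Tdg had a promoter peak of 3986 bp (chromosome 10, 82628702 to 82632687). A peak of 2819 bp at its 3′ end (82650738 to 82653556) had 62 bp in the gene and covered the promoter of the neighbour Glt8d2. Peaks covered 13.9% of Tdg. Mbd3 was the shortest of the 10 genes, at 7.01 kb, and its promoter peak of 6579 bp (chromosome 10, 80394753 to 80401331) held both of its start site groups and 68.4% of the gene. Outside the promoter windows the covered share of Mbd3 was 51.1%, below that of Tet2.

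Across the list, 3 of 10 genes (Dnmt3a, Tet1 and Tet3) had at least 2 promoter peaks, against 2.74% of all protein-coding genes. All 3 are among the 8 listed genes with at least 2 start site groups, and the share over all protein-coding genes with as many was 8.11%. Of the 3, only Dnmt3a had 2 promoter peaks at RefSeq starts. The narrower Tet1 peak lay at a start 7310 bp from the nearest RefSeq start. The wider Tet3 peak lay at a start 14714 bp from one. A promoter peak of at least 10 kb was found at 4 of 10 (Tet2, Tet1, Uhrf1 and Dnmt1), against 5.75% of all protein-coding genes and 11.3% of those with a promoter peak. The median width of the widest promoter peak was 5282.5 bp, against 2225 bp over all protein-coding genes with one. The authors merged peaks within 2 kb of each other, so a wide peak can be a chain of narrower ones, and the list does not keep the parts. Gene body peaks outside the promoter windows were found at 4 of 10 genes (Dnmt3a, Uhrf1, Tet1 and Tdg), against 19.3% of all protein-coding genes and 27.7% of those with a promoter peak. Neither share was matched for gene length, whose median was 45.5 kb in the list and 17.4 kb over all protein-coding genes. The gene body peaks of Uhrf1 and Tdg were the ones at a neighbour's promoter. Median coverage of the gene was 17.3%, against 9.68% over all protein-coding genes with a promoter peak.

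**Figure D2:**
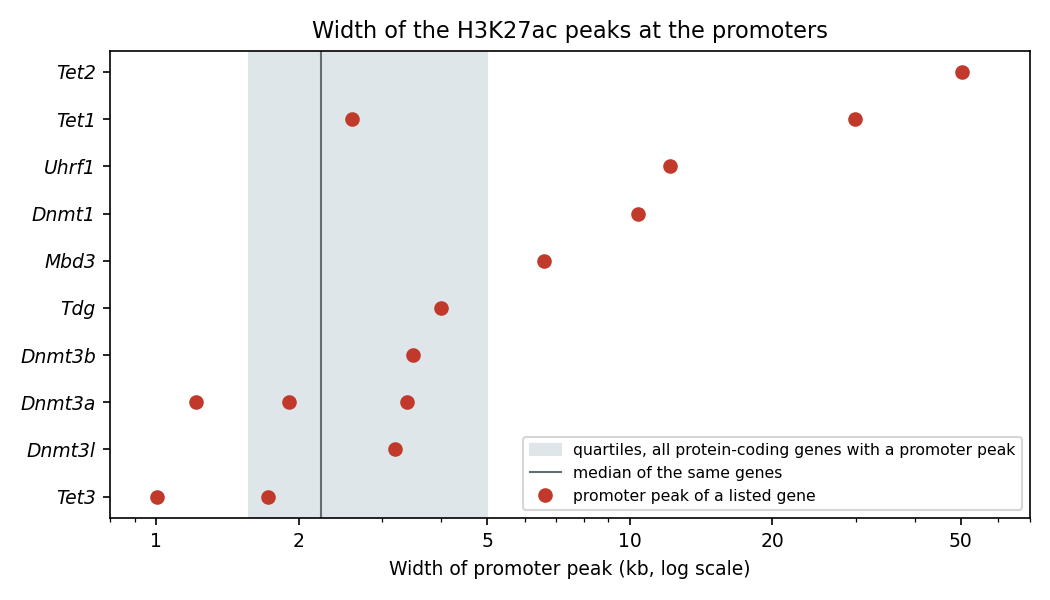
Width in kb (log scale) of each of the 14 promoter peaks of the 10 genes, with the median (line) and quartiles (band) of the widest promoter peak over all protein-coding genes with one. The Tet2 and Tet1 peaks of 50338 and 29855 bp lie far above the band, and 5 genes have their widest peak above its upper edge of 4990 bp.

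CpG content at the start sites was given as the observed over expected number of CpG sites in the same windows of 300 bases. Among groups with a RefSeq start, the median was 0.67 for the 11 listed groups with a peak and 0.11 for the 3 without, against 0.78 and 0.25 over all protein-coding genes. Among those with a peak, Tet2 had 1.17, the long isoform of Dnmt3a 1.05, Tdg 0.92 and Mbd3 0.78. Their order depended on the window, since over 1 kb on each side of the TSS the long isoform of Dnmt3a had 0.88, Mbd3 0.82, Tet2 0.80 and Tdg 0.72. Dnmt3l had the lowest value of these 11 in both windows. Its 0.22 in the short window lay below the 0.27 of its own first start, which had no peak, but over the longer window this turned to 0.31 against 0.22. Dnmt1 had 0.50 at the start with a peak and 0.10 at the other. Over all 30 groups the medians were 0.48 with a peak and 0.16 without, against 0.75 and 0.24 over all protein-coding genes. The ranges overlapped. Low values with a peak were found at Dnmt3l, at starts of Tet1 and Mbd3 with no RefSeq counterpart and, with 0.19, in the Dnmt3a peak of 1216 bp. Groups without a peak reached 0.68 and 0.94 at the downstream Tdg models with an incomplete start, which had 0.30 and 0.46 over the longer window.

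**Figure D3:**
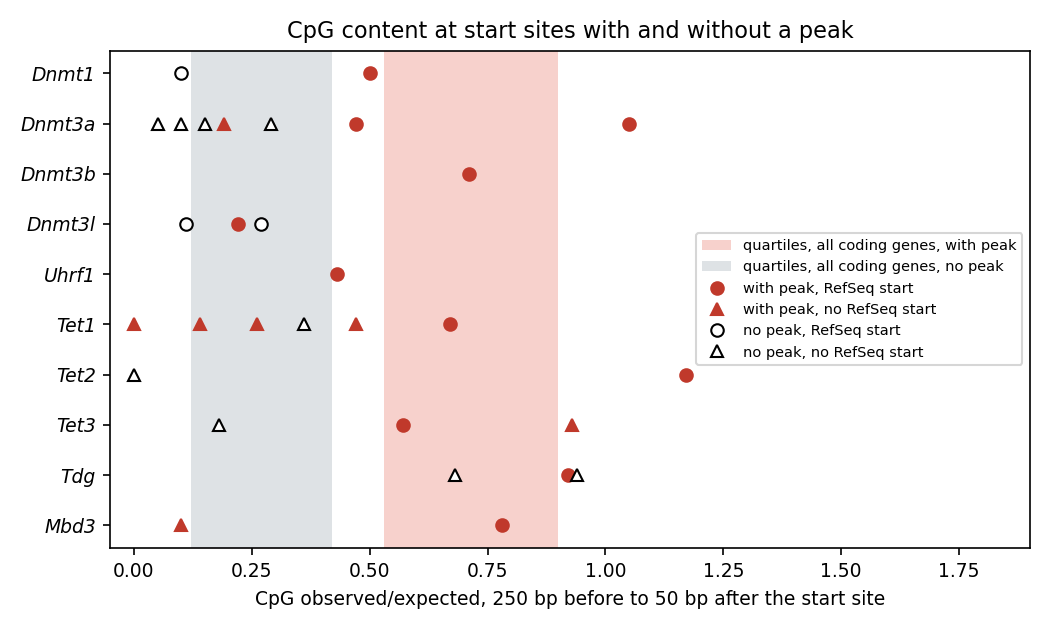
CpG observed over expected ratio in the windows of 300 bases at the 30 start site groups of the 10 genes, filled where a peak is present and open where none is, as circles (with a RefSeq start) or triangles (without), over the quartiles of all protein-coding start site groups with and without a peak. Tet2 and the long isoform of Dnmt3a lie at 1.17 and 1.05, and the Dnmt3l start with a peak at 0.22.

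The windows were searched on both strands for 10 short motifs, none of which contains another: the GC box (GGGCGG), the box named for its letters CCAAT, the TATA box (TATAAA), the E-box CACGTG, the ETS motif CCGGAAG, the octamer ATGCAAAT, the nuclear receptor motif TCAAGGTCA, the E2F motifs TTTCCCGC and TTTGGCGC, and the cAMP response element TGACGTCA. The GC box was found in 12 of the 30 listed groups, CCAAT in 10 and the TATA box in 5, against 35.1%, 37.1% and 14.0% of 32517 protein-coding groups. The E-box was found in 5 groups against 6.72%, all of them with a peak. Among groups with a peak alone, the GC box was found in 11 of 18 listed against 61.6% of all protein-coding ones, CCAAT in 7 against 37.7%, the TATA box in 2 against 6.88%, the E-box in 5 against 10.1% and the ETS motif in 1 against 17.4%. The E-box lay 80 bp before the start of the short isoform of Dnmt3a, 44 bp before the Dnmt3l start with a peak, 197 and 237 bp before the upstream Tet3 start, 49 bp before the Tdg start and after the downstream Mbd3 start. The ETS motif was found in 2 groups (8.53% of all), the octamer in 2 without a peak (1.73%) and the cAMP response element in 1, 156 bp before the Tdg start (1.89%). The nuclear receptor motif and both E2F motifs matched 0 listed windows, and 0.464%, 1.07% and 0.538% of all. The matches are descriptions of letters, not of binding.

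Outside the genes, each of the 10 had at least 1 peak within 50 kb, against 67.5% of all protein-coding genes and 85.7% of those with a promoter peak. The median was 3.5 such peaks, against 1 over all protein-coding genes, of which 51.0% had a promoter peak. No median is given over those alone. Of these 35 peaks, 22 lay upstream and 13 downstream, and 24 (68.6%) overlapped another gene's promoter, against 60.2% of such gene and peak pairs over all protein-coding genes. The 4 nearest were at such promoters: 3.23 kb upstream of Tdg at 1190007I07Rik, 3.84 kb downstream of Mbd3 at Mex3d, 4.75 kb upstream of Mbd3 at Uqcr11 and 5.62 kb downstream of Dnmt3l at Icosl. Of the 11 at no promoter, 4 overlapped another gene and 7 overlapped none. Those in no gene included peaks of 12326 and 4104 bp at 44.9 and 35.4 kb upstream of Dnmt3b and a peak of 8930 bp at 23.1 kb upstream of Dnmt1. The single peak outside Tet2, of 4797 bp, lay 42.2 kb upstream and also in no gene. Which gene such a peak acts on cannot be read from the list.

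Genes related to these enzymes by role were examined in 4 lists, in which 44 of 50 genes had a promoter peak, against 51.0% of all protein-coding genes. Of the readers and regulators of methylation, 16 of 19 had one, and the exceptions were Cxxc4, Dnmt3c, a rodent methyltransferase of the male germ line, and Dppa3, which limits UHRF1 on chromatin. The nearest peaks lay 644 kb from a TSS of Cxxc4, 44.0 kb from one of Dnmt3c and 6.21 kb from one of Dppa3. Zfp57, which with Trim28 keeps methylation at imprinted regions, had a promoter peak of 47651 bp, close in width to that of Tet2, and Trim28 one of 32426 bp. Between them in width were those of Ogt (42890 bp) and Prdm14 (34711 bp), and the median of the list was 4310.5 bp. The base excision repair list holds genes acting after TDG and also other DNA glycosylases. Its genes had a promoter peak in 13 of 14 cases, with Neil3, a DNA glycosylase, the exception (126 kb). NuRD partners of MBD3 had one in 11 of 13 cases, all but the remodeller Chd3 (25.2 kb) and the histone chaperone Rbbp4 (17.2 kb). Of these, Rbbp4 had 1 peak in its body and Chd3 had 0. All 6 genes of methyl donor supply, such as Mat2a and Ahcy, had one.

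The label of the cells was checked with marker genes. A promoter peak was present at 6 of 7 ESC markers (Klf4 was without one), 1 of 5 fibroblast or feeder markers (Twist1, 476 bp), 2 of 4 endoderm markers (Gata4 and Gata6) and 1 of 4 neural markers (Tubb3). The widest promoter peak of the ESC markers had a median width of 35028 bp, so the Tet2 and Tet1 peaks lay in their range and the others of the list below it.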

How the data were processed

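H3K27ac ChIP-seq was performed in 6 samples, with 2 replicates per condition. The authors trimmed the reads with Cutadapt, aligned them with bwa meme to mm10 and a human genome, removed duplicates with Picard 2.9.1, filtered with samtools 1.4, called peaks with LanceOtron, merged those within 2 kb and removed peaks by height, enrichment and distance from ATAC-seq summits. The deposited list gives pooled Control peak positions in base pairs, with no height, so depth cannot be read from it, and a missing peak may have failed a threshold or had no signal.

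Peaks were compared with GENCODE M21 (GRCm38, the same build), protein-coding and lincRNA transcripts, with a minimum overlap of 1 bp. A start site group was represented by the TSS of its transcript with the longest genomic span. RefSeq starts (GRCm38.p6) matched 10 of 10 genes. Overlap functions were tested on simulated data with known answers. Members, lists and motifs were chosen with earlier results of these data known. Neighbouring genes and Zfp57, Trim28, Ogt, Prdm14, Mat2a and Ahcy were named after their values were seen. All 10 members and the related genes without a promoter peak were named by rule. Python 3.11.15, numpy 2.4.6, scipy 1.17.1 and matplotlib 3.10.9 were used.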

Additional observations from a re-analysis of the deposited data

How the results depend on the processing

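No paired analysis was possible because the deposited list pools both Control replicates, so leaving out a replicate was not possible either, and nothing was tested. The number of listed genes with a promoter peak was 10 under windows of 500 bp or 2 kb, the TSS itself inside a peak, every annotated transcript, peaks at least 1 kb wide and an overlap of 500 bp, and 8 with the longest isoform alone, when Dnmt1 and Dnmt3l, whose isoforms of longest genomic span start at sites without a peak, dropped out. It was also 10 without incomplete starts and with RefSeq starts, which were added after seeing the data. With RefSeq starts, 32 of the 35 related genes that have one had a promoter peak. The share over all protein-coding genes ranged from 45.6% to 52.1%. Placing each peak by its midpoint gave 8 listed genes with a gene body peak instead of 4, with promoter peaks that reach into the gene counted by their middle: Dnmt1, Dnmt3b, Dnmt3l, Tet2 and Mbd3 were gained, and Tdg was lost. The 35 peaks outside the genes became 12 within 20 kb, 54 within 100 kb and 11 without those at another promoter, and genes with one fell to 8 within 20 kb and to 8 without those at another promoter. Leaving out the promoter windows moved the covered share of 9 of 10 genes, that of Tet3 from 2.82% to 0%. It also fell from 13.9% to 7.15% for Tdg, from 8.50% to 5.14% for Dnmt3a and from 7.81% to 4.91% for Dnmt3b. With 1 kb on each side of the TSS, the median CpG ratio was 0.50 for listed start site groups with a peak and 0.23 for those without, and the orders of single starts that changed are given with the CpG values.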
